A study of Homo sapiens with 6 samples.

Results

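Intermediate filament genes used as markers of stellate and epithelial cells were examined in LX-2 cells, an established human hepatic stellate cell line, with and without transforming growth factor beta 1 (TGF-β1). The 10 genes, out of 27830 in the table, are the rows whose gene name is on a given list, a rule that uses no measured value (the list was drawn up with earlier results of these data known): VIM, DES, GFAP, NES, SYNM, KRT7, KRT8, KRT18, KRT19 and LMNA. The groups were 3 samples labelled as control and 3 samples that received TGF-β1 at 10 ng/ml for 24 h. All 6 samples are of the same line, which is grown in DMEM with 10% fetal bovine serum. Treatment took place without serum, and the labels do not say which medium the controls had during that time, so TGF-β1 and serum cannot be told apart. Whether the samples within a group came from separate cultures is not stated, and p-values therefore reflect only how much these particular samples differ, possibly for technical reasons. In such bulk RNA, fewer cells expressing a gene and less of its RNA per cell cannot be told apart.

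Intermediate filaments are rope-like polymers that give a cell or its nucleus mechanical strength, and the subunit used depends on the cell type. Vimentin forms the filaments of mesenchymal cells, desmin and glial fibrillary acidic protein mark stellate cells in the liver, and nestin and synemin are large subunits that join vimentin or desmin filaments. Keratins form obligate pairs of a type I and a type II chain, with keratin 8 and keratin 18 in hepatocytes and simple epithelia, and keratin 7 and keratin 19 in bile duct cells. A-type lamins from LMNA form the lamina under the nuclear membrane in nearly all differentiated cells.

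VIM, LMNA, KRT8 and KRT18 were abundant in LX-2 cells, SYNM was low, GFAP, KRT7 and NES had 11 to 44 counts per library, and DES and KRT19 had 0 to 5. The edgeR quasi-likelihood test called 0 of the 8 members that passed the filter on low counts at an adjusted p under 0.05, against 0.366% of the 14463 genes tested (0.187% higher and 0.18% lower), and limma voom and limma on FPKM called 0 as well. DESeq2 called 0 of the 7 members for which it gave an adjusted p, all but NES, against 4.45% of its 13262 genes. A member not called is not shown to be unchanged, and LMNA was called without TGF-β1 replicate 3. One member, LMNA, had an unadjusted p under 0.05, which 15.6% of tested genes had (4.49% lower with TGF-β1, as LMNA was).

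VIM, the vimentin gene, was the most abundant member on a per-length scale and NES, the nestin gene, had the lowest mean in the controls of the 8 tested members. The 250 bases before the start of both genes are shown because the genes differ so widely in level, from RefSeq on GRCh38.p14, whose promoter table matched 5 of the 10 members. The VIM window is chr10:17227991-17228240 on the plus strand and the NES window is chr1:156677408-156677657 on the minus strand. Capitals mark GGGCGG or its reverse complement, the core of the Sp1 box.
VIM: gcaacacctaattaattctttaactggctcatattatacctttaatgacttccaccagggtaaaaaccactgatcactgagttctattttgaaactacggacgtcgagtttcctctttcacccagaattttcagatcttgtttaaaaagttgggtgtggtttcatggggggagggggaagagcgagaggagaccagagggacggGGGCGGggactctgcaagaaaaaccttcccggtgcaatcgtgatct
NES: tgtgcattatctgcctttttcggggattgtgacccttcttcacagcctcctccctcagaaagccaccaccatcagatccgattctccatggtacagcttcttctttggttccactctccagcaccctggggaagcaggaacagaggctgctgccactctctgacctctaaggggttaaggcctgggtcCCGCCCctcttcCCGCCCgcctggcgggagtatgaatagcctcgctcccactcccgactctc
GGGCGG was found 1 time in the VIM window and 2 times in the NES window, and 42.6% of 35116 windows of this length hold it. The AP-1 motif, searched on both strands as TGANTCA, is in neither window and in 6.57% of all windows. The core promoter motif TATAAA and the SMAD motif CAGACA, searched in the same way, are in neither and in 10.7% and 13.6% of all windows. A match is a description of the letters, not of a binding site.

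Members were first compared by level, using the deposited FPKM, which divides a count by gene length and library total. The ± values here and below, unless marked SE, are SDs over 3 libraries. VIM had 284, 257 and 274 FPKM in control replicates 1 to 3 and 220, 238 and 256 FPKM with TGF-β1. LMNA had 84.8, 101.9 and 84.1 FPKM in the controls and 59.3, 72.4 and 82.8 FPKM with TGF-β1. KRT18 had 72.7, 77.7 and 64.5 FPKM and then 49.3, 60.4 and 68.4 FPKM. KRT8 followed with 52.1, 61.6 and 50.1 FPKM in the controls and 39.0, 54.1 and 55.5 FPKM with TGF-β1. VIM was above every other member in each of the 6 libraries, while within the TGF-β1 group the range of KRT18 overlapped those of LMNA and KRT8. In the controls LMNA lay above KRT18 and KRT18 above KRT8 without overlap. Within each of the 6 libraries, also those with TGF-β1, FPKM fell from LMNA to KRT18 to KRT8. VIM made up 55.5% ± 3.53 of the summed FPKM of the 10 members in the controls and 56.8% ± 2.37 with TGF-β1 (SD, n = 3 per group), and LMNA 18.4% ± 1.73 and 16.9% ± 0.877.

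A wide gap separated these 4 from the rest. SYNM had 1.29 to 1.47 FPKM in the controls and 1.07 to 1.52 FPKM with TGF-β1. KRT7 had 0.337 to 0.354 and 0.276 to 0.577 FPKM, GFAP 0.125 to 0.221 and 0.148 to 0.173 FPKM, and NES 0.121 to 0.178 and 0.165 to 0.317 FPKM. GFAP and NES exchanged places in the order of FPKM between the groups, with ranges that overlapped in both. VIM stood 1596 to 2265 times above NES in FPKM in the controls and 752 to 1414 times with TGF-β1. These ratios rest on 11 to 29 NES counts per library.

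The order of the keratin partners depended on the length used. The deposited FPKM corresponds to a length of 6881 bases for KRT8 and 3069 bases for KRT18, whereas their principal transcripts in GENCODE 29 are 2126 and 1562 bases long. The KRT8 to KRT18 ratio was 0.717 to 0.793 in the controls and 0.792 to 0.896 with TGF-β1 in FPKM. With the principal transcript as length, an alternative chosen after seeing the data, it was 1.18 to 1.31 and 1.30 to 1.48. KRT8 was thus below KRT18 in all 6 libraries on one scale and above it in all 6 on the other. For VIM the length behind the FPKM was 2.42 times the principal transcript (5176 and 2135 bases). For LMNA it was 2.55 times (8141 and 3190 bases), while the 2 lengths of NES nearly coincide (5568 and 5558 bases). With the principal transcript as length, VIM stood 3863 to 5481 times above NES in the controls and 1819 to 3423 times with TGF-β1. On that scale the mean of GFAP was above that of NES in both groups (0.296 and 0.144 in the controls, 0.272 and 0.221 with TGF-β1).

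**Figure D1:**
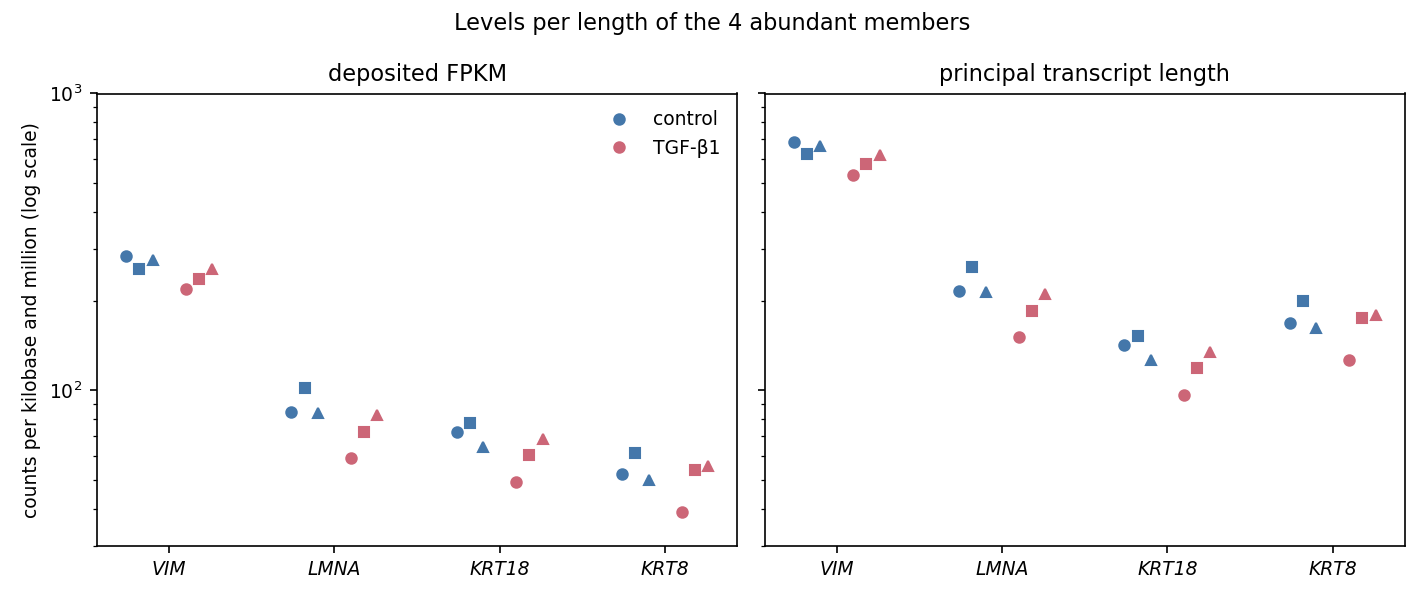
Level of the 4 abundant members per length and library total (FPKM scale) on a log axis, with the length behind the deposited FPKM on the left and the principal GENCODE 29 transcript on the right. Each marker is 1 library (circle, square and triangle for replicates 1 to 3). VIM is highest on both scales, and KRT18 and KRT8 change order.

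The comparison between groups was made within each gene, in CPM, counts scaled to a common library size with TMM factors. For VIM, a type III subunit, control replicates 1 to 3 had 1466, 1372 and 1409 CPM, and the TGF-β1 replicates had 1123, 1200 and 1352 CPM. The 3 TGF-β1 libraries lay below the 3 controls, with the third TGF-β1 library close to the lowest control. Groups did not overlap in this way for 1 of the 8 tested members, against 17.1% of all tested genes, 9.12% with TGF-β1 lower. The log2 difference was -0.21 ± 0.12 (SE), and its 95% interval reached from -0.47 to 0.05, or 0.723 to 1.04 times the control level (edgeR adjusted p = 0.423). On GRCh38, VIM occupies bases 17228259 to 17237593 of chromosome 10, plus strand. The antisense gene VIM-AS1 overlaps 12.4% of its exon bases and had 10 to 25 counts per library, against 18406 to 23570 for VIM. A second antisense gene, AL133415.1, overlaps 12.0%. No row of the deposited counts carries this name, and it was not searched under another identifier, so its counts are not known here.

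LMNA, which encodes lamins A and C, had the lowest unadjusted p of the members. Control replicates 1 to 3 had 688, 854 and 681 CPM and the TGF-β1 replicates had 476, 574 and 686 CPM. The third TGF-β1 library lay within the range of the controls, and the other two lay below it. The log2 difference was -0.36 ± 0.15 (SE; unadjusted p = 0.0399, edgeR adjusted p = 0.291). It was -0.24 without TGF-β1 replicate 1 and -0.26 without control replicate 2. Without TGF-β1 replicate 3 it was -0.50 and passed (edgeR adjusted p = 0.0422), and over all 25 alternatives the adjusted p ran from 0.0422 to 0.877. LMNA occupies bases 156082573 to 156140089 of chromosome 1, plus strand, and no other annotated gene overlaps its exons.

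KRT8, the type II keratin of the pair, had 357, 436 and 343 CPM in the controls and 265, 363 and 389 CPM with TGF-β1. Its groups overlapped, with TGF-β1 replicate 1 lowest and control replicate 2 highest. The log2 difference was -0.16 ± 0.16 (SE; edgeR adjusted p = 0.665), and it came to -0.01 without TGF-β1 replicate 1. KRT18, the type I partner, had 222, 246 and 197 CPM in the controls and 149, 181 and 214 CPM with TGF-β1. Here too the groups overlapped, through TGF-β1 replicate 3. The log2 difference of KRT18 was -0.29 ± 0.15 (SE; edgeR adjusted p = 0.38).

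The pair lies side by side on chromosome 12. KRT8 runs from 52897187 to 52949954 on the minus strand and KRT18 from 52948871 to 52952901 on the plus strand. Their annotated 5′ exons share 525 bases, which are 16.3% of the exon bases of KRT18 and 7.63% of those of KRT8. The library kit does not mark strand, so reads in this stretch cannot be assigned to one of the 2 genes. Both genes also have processed copies elsewhere in the genome, so that reads may be divided between them. The 14 rows named as KRT8 pseudogenes held counts equal to 1.75% to 4.11% of those of KRT8, and the 17 rows of KRT18 pseudogenes 0.508% to 0.974%. The share was highest in TGF-β1 replicate 1 for both genes, and adding these counts gave log2 differences of -0.14 for KRT8 and -0.29 for KRT18.

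The low members were led by SYNM, the synemin gene. SYNM had 10.4, 10.3 and 11.4 CPM in the controls and 10.1, 11.5 and 8.45 CPM with TGF-β1. Its groups overlapped, with TGF-β1 replicates 1 and 3 below the controls and replicate 2 above them. Its log2 difference was -0.09 ± 0.19 (SE; edgeR adjusted p = 0.843). Annotated antisense genes overlap 27.7% of the exon bases of SYNM. For GFAP the controls held 27, 44 and 23 counts and the TGF-β1 libraries 27, 32 and 24, with a log2 difference of -0.15 ± 0.30 (SE; edgeR adjusted p = 0.84). The TGF-β1 values of GFAP lay inside the range of the controls, and 18.4% of its exon bases overlap genes of the opposite strand.

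NES and KRT7 were the only tested members with a positive difference. For NES the controls held 14, 13 and 11 counts and the TGF-β1 libraries 15, 29 and 14. The second TGF-β1 library, at 1.72 CPM, stood above the other 5, whose highest was 1.03 CPM. The log2 difference of NES was 0.61 ± 0.38 (SE; edgeR adjusted p = 0.469), its 95% interval of 0.858 to 2.73 times the control level was the widest of the 8, and without TGF-β1 replicate 2 the difference was 0.27. For KRT7, a type II keratin, the controls held 20, 25 and 22 counts and the TGF-β1 libraries 18, 38 and 28. TGF-β1 replicates 2 and 3 lay above the controls and replicate 1 below them (log2 difference 0.35 ± 0.33 SE; edgeR adjusted p = 0.642). The difference of KRT7 was 0.15 without TGF-β1 replicate 2 and 0.62 without TGF-β1 replicate 1.

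DES and KRT19 did not pass the filter. DES, the desmin gene, was counted 2, 5 and 1 times in the control libraries and 3, 1 and 1 times in the TGF-β1 libraries. KRT19 was counted 2, 0 and 0 times in either group. The floor that a count of 0 allows, 3 counts, is 0.17 to 0.216 CPM in these libraries, so KRT19 was at or under the floor in all 6 and DES in 5 of 6. No fold is given for either gene.

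**Figure D2:**
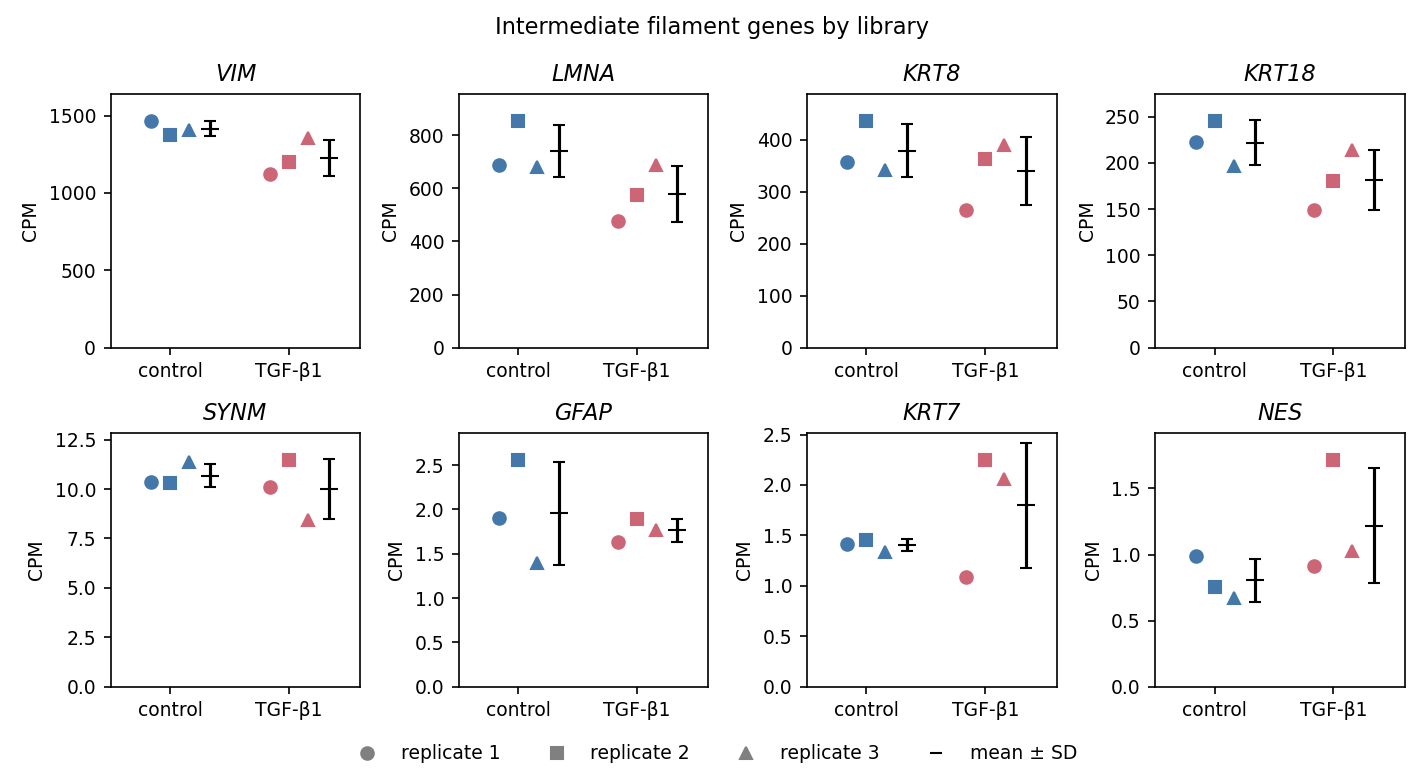
CPM of the 8 tested members in each library on linear axes that start at 0 (circle, square and triangle for replicates 1 to 3), with the mean and SD of 3 libraries beside them. For VIM, LMNA, KRT8 and KRT18 the lowest value is TGF-β1 replicate 1, and only for VIM do the 3 TGF-β1 libraries all lie below the 3 controls.

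The 4 abundant members varied together across libraries, and so did the GC content of what was counted. Their transcripts have 52.7% (VIM), 57.3% (KRT18), 57.7% (KRT8) and 61.7% (LMNA) GC, all above the median of 49.4% over tested genes, as are those of the other 4 tested members. A smooth trend of each library on GC content lay at -0.18 (VIM) to -0.32 (LMNA) on the log2 scale in TGF-β1 replicate 1 for these 4 genes, and at 0.14 to 0.28 in control replicate 2. In control replicate 1 and control replicate 3 it lay between -0.03 and 0.04. It lay between -0.10 and -0.05 in TGF-β1 replicate 2 and between 0.08 and 0.10 in TGF-β1 replicate 3. How far the trend goes with the treatment was not tested, so its removal may also take away part of a group difference. The deviation of LMNA from its own mean was -0.45 in TGF-β1 replicate 1 and 0.39 in control replicate 2, and that of KRT8 was -0.42 and 0.30. The libraries at the ends of the trend were thus also those in which these members were lowest and highest, except that VIM was highest in control replicate 1.

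With this trend removed the differences of these members came closer to 0. The log2 difference of LMNA was -0.18 ± 0.07 (SE; edgeR adjusted p = 0.171), of KRT18 -0.12 ± 0.07 (adjusted p = 0.377), of VIM -0.09 ± 0.07 (adjusted p = 0.544) and of KRT8 0.01 ± 0.08 (adjusted p = 0.948) in edgeR. NES had 0.80 and KRT7 0.53, both farther from 0 than before (edgeR adjusted p = 0.257 and 0.349). Of the 8 members 0 were called with the trend removed, against 2.15% of all tested genes (0.892% lower). Leaving out control replicate 2 and TGF-β1 replicate 1 together, a choice made after seeing the data, gave -0.12 for LMNA, -0.09 for KRT18, -0.17 for VIM and 0.10 for KRT8, again with 0 calls. Over all alternatives VIM, LMNA and KRT18 stayed below 0 and NES and KRT7 above 0, while KRT8, SYNM and GFAP changed sign.

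**Figure D3:**
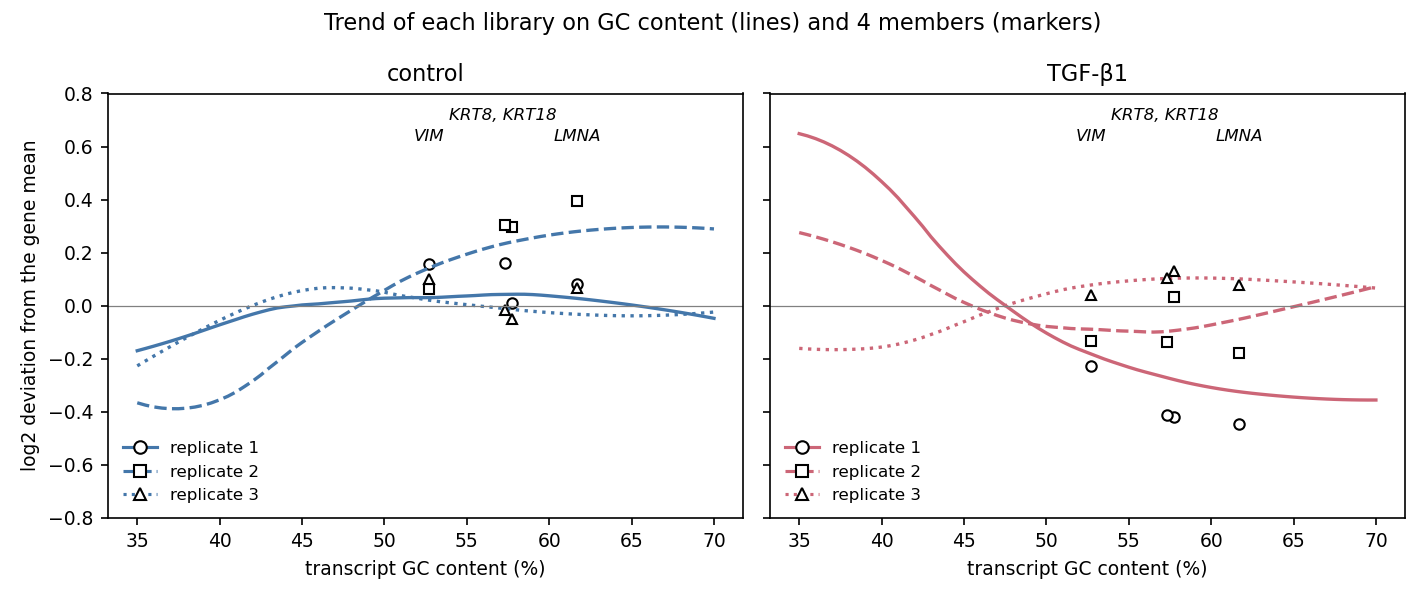
Lines show how each library's log2 deviation from the gene mean varies with transcript GC content (loess), for controls (left) and TGF-β1 (right). Markers show VIM, KRT18, KRT8 and LMNA in the same libraries. TGF-β1 replicate 1 falls and control replicate 2 rises with GC content, and the markers of these libraries lie on the same side of 0 as the lines.

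**Figure D4:**
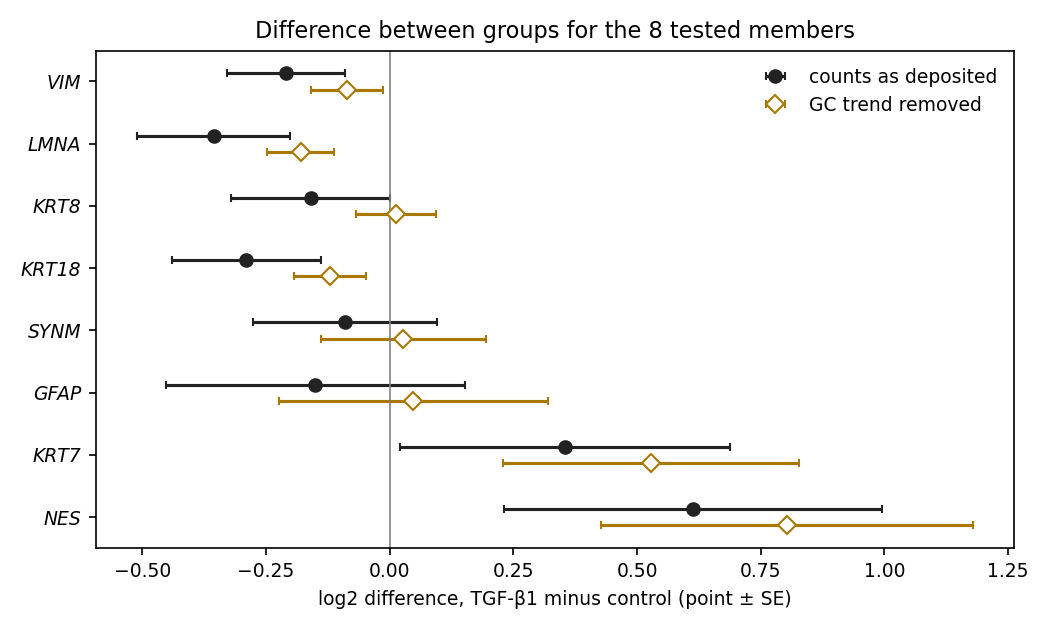
Log2 difference between TGF-β1 and control (point ± SE) for the 8 tested members, from counts as deposited (filled circles) and with the GC trend removed (open diamonds). LMNA moves from -0.36 to -0.18 and KRT8 from -0.16 to 0.01.

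Likeness across the 6 libraries was measured as the root mean square difference between log2 deviations from each gene's mean. KRT18 and LMNA were the closest pair of tested members (0.064), followed by KRT8 and KRT18 (0.0947) and KRT8 and LMNA (0.113), and NES and LMNA were the farthest apart (0.544). Among genes with a mean of at least 50 CPM, VIM was closest to NUP62 (0.0246) and PRCP (0.031), KRT8 to NOP53 (0.0126) and ZDHHC12 (0.0198), KRT18 to RPLP0 (0.0185) and RPS27 (0.0208), and LMNA to ADAM15 (0.0186) and LY6E (0.027). NES had no near match among these genes, with FSTL3 closest at 0.171 and OCIAD2 at 0.209. It had only 11 to 29 counts per library, so counting error enters its values, also that with LMNA, far more than those of abundant genes. A distinct pattern of NES cannot be read from them. These libraries share the GC trend, which enters every such value.

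Marker genes were set beside the members because keratins and glial filament protein could come from other cell types. The stellate and mesenchymal label was checked first: COL1A1 (18192 to 32395 counts), COL3A1, THY1 and PDGFRB (660 to 898 counts) were present, ACTA2 had 65 to 92 counts and COL1A2 29 to 48, DCN had 1 to 6, LUM 4 to 14 and CYGB 1 to 8, and LRAT, the retinyl ester enzyme of quiescent stellate cells, had 0 counts in 5 libraries and 2 in the other. The sum over 15 of 16 stellate and mesenchymal markers was 1645 to 1822 CPM in the controls and 2206 to 2677 CPM with TGF-β1 (exact permutation p = 0.1, 0.267 when adjusted over 8 marker lists). The markers with the highest means in this sum were COL1A1 (1319 and 1780 CPM, edgeR adjusted p = 0.159), TAGLN (96.9 and 306 CPM, adjusted p = 0.000682) and COL3A1 (94.3 and 157 CPM, adjusted p = 0.0349). PDGFRB had 47.2 and 47.5 CPM, and THY1, HAND2, NGFR and ACTA2 were lower with TGF-β1 on average. Of the epithelial markers other than keratins, SOX9, which stellate cells also express, had 77.2 CPM in the controls and 74.9 CPM with TGF-β1 on average. SPP1 had 141 to 249 counts per library, CLDN4 71 to 149 and MUC1 28 to 52. EPCAM had 0 or 1 count, ESRP1 0 to 3, ELF3 0 to 2 and CLDN7 0 to 4, in the same libraries in which KRT8 had 4375 to 7500. The hepatocyte markers APOA1 and APOB also had 0 or 1 count, although the sum over 5 of 10 markers was 50.3 to 54.1 and 57.3 to 72.5 CPM, nearly all from CPS1 and SERPINA1 (exact permutation p = 0.1, two-sided, n = 3 per group, where the smallest possible is 0.1). Of the glial and neural markers, MBP had 71 to 101 counts in the controls and 37 to 53 with TGF-β1, TUBB3 had 14 to 26 over all libraries, SOX10 0 to 4, MAP2 0 to 3 and S100B 0 to 2. The sum over 4 of 6 leukocyte markers was 25.0 to 31.5 CPM and 20.1 to 22.1 CPM (exact permutation p = 0.1). Adjusted over the 8 marker lists, the exact permutation p was 0.267 for both the leukocyte and the hepatocyte sum. The endothelial sum was 440 to 452 CPM in the controls and 430 to 449 CPM with TGF-β1 (exact permutation p = 0.5), mostly TIE1 (4307 to 6235 counts) and FLT1, while CDH5 had 0 to 4 counts. The mesothelial sum was 34.0 to 40.2 and 38.1 to 40.1 CPM (exact permutation p = 0.4), with WT1 at 311 to 437 counts. The muscle sum was 197 to 226 and 180 to 230 CPM (exact permutation p = 1), nearly all SMTN, with CKM at 0 to 8 counts. The part of these marker sums in the members' values was not tested.

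The rest of the filament family was also without calls in the edgeR test and in DESeq2. Besides the 10 members, 38 genes of the family list were in the table, keratins for the most part, and 15 of them passed the filter. Called by edgeR were 0 of these 15 in either direction, against 0.366% of all tested genes. An unadjusted p under 0.05 was seen for 0 of them, against 15.6% of all tested genes. DESeq2 called 0 of the 13 for which it gave an adjusted p, against 4.45% of all its genes. The median log2 difference of the 15 was -0.18, beside 0.01 over all tested genes, and -0.02 beside 0.05 with the GC trend removed. LMNB2 and LMNB1, the B-type lamins, had 508 ± 61.1 and 481 ± 52.5 CPM and 199 ± 9.73 and 192 ± 7.92 CPM in controls and TGF-β1 (SD, n = 3; edgeR adjusted p = 0.81 and 0.862). KRT81, a hair keratin, had the next highest CPM of the 15, with 86.2 ± 15.5 and 104 ± 31.0 CPM (edgeR adjusted p = 0.563).

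Partners of the filaments were counted from lists of genes chosen by their roles. Of 13 cross-linkers and desmosomal partners 10 were tested and 0 called by edgeR, with 3 at an unadjusted p under 0.05 (15.6% of all tested genes) and a median log2 difference of -0.10, and DESeq2 called 1 of 9 (4.45% of all its genes). PLEC, the plectin gene, whose product ties vimentin and keratin filaments to each other and to adhesion sites, had the highest CPM of this list (1649 ± 238 and 1425 ± 133 CPM, SD, n = 3; edgeR adjusted p = 0.486). MACF1 and DST, which link filaments with actin and microtubules, had log2 differences of 0.40 ± 0.20 and 1.07 ± 0.30 (SE; edgeR adjusted p = 0.347 and 0.151). DSP, the desmoplakin gene, which anchors keratins to desmosomes, was singled out after its values were seen. The controls held 218, 260 and 378 DSP counts and the TGF-β1 libraries 788, 633 and 385, a log2 difference of 1.09 ± 0.23 (SE; edgeR adjusted p = 0.0831) that passed with the GC trend removed (1.14 ± 0.20 SE; adjusted p = 0.0178).

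Of 15 genes of the nuclear lamina and envelope, all tested, 0 were called by edgeR, 4 had an unadjusted p under 0.05 and DESeq2 called 1 of 15, SYNE1, with a median of -0.05 in edgeR. BANF1, a chromatin tether at the envelope, had 275 ± 33.6 and 266 ± 40.1 CPM (SD, n = 3; edgeR adjusted p = 0.891). Of 16 kinases and other regulators of filament assembly 15 were tested, edgeR called 0, 4 had an unadjusted p under 0.05 and DESeq2 called 2 of 15, beside the same shares of 15.6% and 4.45% over all genes. The highest CPM of this list belonged to UCHL1 (836 ± 51.9 and 776 ± 110 CPM), PRMT1 (394 ± 34.1 and 351 ± 61.8 CPM) and PPP2CA (235 ± 27.0 and 228 ± 23.9 CPM; SD, n = 3), with edgeR adjusted p of 0.73, 0.615 and 0.907. The 2 genes called by DESeq2 were ROCK1 and ROCK2, kinases that phosphorylate vimentin. ROCK1 had a log2 difference of 1.03 ± 0.24 (SE; edgeR adjusted p = 0.111), and 0.59 with the GC trend removed, where it was called (edgeR adjusted p = 0.042). For ROCK2 these values were 1.13 ± 0.28 (SE; edgeR adjusted p = 0.124) and 0.72 (edgeR adjusted p = 0.0394). Transcripts of ROCK1 and ROCK2 have 38.7% and 39.4% GC, and both genes had their highest counts, 1326 and 830, in TGF-β1 replicate 1. When 1 library was left out, edgeR called DSP, ROCK1 and ROCK2 only when it was TGF-β1 replicate 1 or 3. In the GC-corrected fits, ROCK1 and ROCK2 were called in the same 2 cases, and DSP in all but those without control replicate 1 or TGF-β1 replicate 2. A block for the replicate number led to calls of DSP, SYNE1, ROCK1 and ROCK2 on counts as deposited and to 0 calls in these lists in the GC-corrected fit.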

How the data were processed

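Counts per gene were deposited without normalization for 6 samples, per the file headers, beside FPKM values that the authors derived from them: the length that joins the 2 was the same within 0.5 base for all 23850 genes with counts in 2 or more libraries. HISAT2, HTSeq version 0.13.5 and GRCh38 are named in the submitters' processing notes, with no role given, while no source used here names the authors' annotation release. Library totals ran from 13866957 to 17694675 counts. The floor of 3 counts covers counting error only, while the 95% intervals come from the edgeR fit and include the spread between libraries. GENCODE 29 on GRCh38 gave positions, overlaps and the GC content of transcripts (26968 genes matched, 862 not).

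The test was edgeR 4.0.16 in R 4.3.3 (quasi-likelihood F test, robust, TMM, filterByExpr, 14463 genes), with Benjamini-Hochberg adjustment over all genes tested and calls under 0.05. The GC trend is a loess fit with span 0.5 per library, entered as an offset. Alternatives were other scaling, filters, DESeq2 1.42.0, limma 3.58.1 (voom, and log2(FPKM + 1) and log2(FPKM + 0.1)), the replicate number as a block and samples left out. In simulated data of 14463 genes the fit recovered 14.9% of changes of 1.5 times, 67.2% of 2 times and 89.4% of 4 times. Of its calls there, 8.8% were false.

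Members and lists were chosen with earlier results of these data known. Named were all 10 members, up to 4 called and the 3 most abundant genes of each list, and the 2 genes most like each of 5 members; others were chosen after their values were seen.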

Additional observations from a re-analysis of the deposited data

How the results depend on the processing

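Of the members tested (8, but 7 with DESeq2 and with the filter of 1 CPM, and 10 without a filter) 0 were called under every alternative run except without TGF-β1 replicate 3, where LMNA was, so that leaving out 1 sample gave 0 to 1 called members. The number of genes called, 53 with edgeR, was 111 with upper quartile factors, 1240 without a filter, 590 with DESeq2, 21 with log2(FPKM + 1) and 21 with log2(FPKM + 0.1), 311 with the GC trend removed and 192 without both control replicate 2 and TGF-β1 replicate 1. Leaving out 1 sample gave 4 to 1671 calls (13 and 15 without control replicates 1 and 3, 324 without TGF-β1 replicate 1, 4 without TGF-β1 replicate 2, 1671 without TGF-β1 replicate 3). In GC-corrected fits without 1 sample, which like those without the pair of libraries were chosen after seeing the data, the calls were 69, 149 and 201 without control replicates 1 to 3 and 369, 81 and 1176 without TGF-β1 replicates 1 to 3. With RLE factors, total counts, a filter of 1 CPM and limma voom it stayed within 1.5 times of 53. The log2 difference of KRT8 changed sign with the GC trend removed (0.0125), with the block too (0.00915) and without the pair of libraries (0.10). GFAP did so at 0.0481, 0.0606 and 0.157 and SYNM at 0.0272 and 0.0135 (GC removed, and with the block). Without 1 sample GFAP ran from -0.353 to 0.0766 and SYNM from -0.201 to 0.0140. In the GC-corrected fits that left out 1 sample, values above 0 were 0.0595, 0.190, 0.00651 and 0.136 for GFAP (without control replicates 1 and 2 and TGF-β1 replicates 1 and 3), 0.0254, 0.0787 and 0.00112 for KRT8 (control replicate 2, TGF-β1 replicates 1 and 3) and 0.0153, 0.0766 and 0.178 for SYNM (control replicates 1 and 3, TGF-β1 replicate 3). Apart from the fewer samples or the greater number of genes tested that some alternatives bring, the cause was not tested. Adding a block for the replicate number led to 527 calls, and 161 with the GC trend removed, with 0 members called. Samples of the same number had deviations correlated by 0.176, 0.1 and -0.355, and at -0.0123, 0.0846 and -0.167 with the trend removed. For no number did both samples correlate best with each other. With so few samples, these values cannot show whether samples of the same number belong together, and the labels do not say. Depth limits the precision for NES, GFAP and KRT7, with 11 to 44 counts per library, and DES and KRT19, with 0 to 5, could not be compared.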

Other observations

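Other keratins were also counted in these libraries. For KRT81, a hair keratin, the controls held 1039, 1777 and 1343 counts and the TGF-β1 libraries 1354, 2352 and 1221, and the highest value was in TGF-β1 replicate 2. KRT80 had 585, 850 and 665 counts and then 595, 532 and 537 (log2 difference -0.30 ± 0.16 SE, edgeR adjusted p = 0.385). KRT34, another hair keratin, had 159, 216 and 203 counts and then 130, 162 and 137 (log2 difference -0.39 ± 0.18 SE, edgeR adjusted p = 0.32). KRT79 had 41, 38 and 48 counts and then 60, 58 and 59 (log2 difference 0.51 ± 0.24 SE, edgeR adjusted p = 0.329). KRT86 had 24, 30 and 31 counts and then 12, 25 and 20. Of the 15 tested family genes besides the members, the groups did not overlap in CPM for KRT80, KRT34, KRT79 and KRT86, against 17.1% of all tested genes. These genes were named after their values were seen. Hair keratins of the KRT81 and KRT86 type are near-identical in sequence, so their counts are uncertain. KRT81 was called by edgeR in 2 cases, after dropping both control replicate 2 and TGF-β1 replicate 1, and after dropping TGF-β1 replicate 3 from the GC-corrected fit, and under no other alternative run.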
